A study of Mus musculus with 4 samples.

Results

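AMPA and NMDA receptors are the ligand-gated channels that carry fast excitatory transmission at glutamate synapses. Each is an assembly of subunits, GluA1 to GluA4 (genes Gria1 to Gria4) for AMPA receptors, and GluN1 (Grin1) with GluN2 (Grin2a to Grin2d) or GluN3 (Grin3a) subunits for NMDA receptors. AMPA receptors open on glutamate alone, and the GluA2 subunit, whose pore codon is changed by RNA editing, keeps calcium out of them. NMDA receptors need a co-agonist and depolarization, pass calcium, and take their kinetics and magnesium block from the GluN2 subunit they hold. In midbrain dopamine neurons these receptors receive the excitatory inputs that drive burst firing. The members were all array probe sets that the platform annotation gives to 1 of 10 genes alone (Gria1 to Gria4, Grin1, Grin2a to Grin2d and Grin3a). They are 21 of the 45101 probe sets on the array and cover 9 of the 10 genes, out of 18193 genes with a probe set of their own. No probe set carries Grin1 in that annotation, so the obligatory NMDA subunit was not analysed here.

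TRAP RNA, pulled down with GFP-tagged ribosomes, was measured on 2 arrays (TRAP, replicates 2 and 4) and compared with RNA of the whole midbrain dissection on 2 arrays (input, replicates 1 and 2). Every array came from a pool of 5 adult mice of both sexes, aged 6 to 12 weeks, of the Slc6a3 JD1640 TRAP line. In all mice of both groups, including those that gave the input, a BAC with the Slc6a3 promoter drives eGFP/RPL10A, and the transgene was kept heterozygous. They are of 1 line, begun in FVB oocytes and crossed to C57BL6/j, and TRAP and input share only replicate number 2. The methods describe inputs taken in parallel, so the arrays numbered 2 may come from 1 pool, but the fit treats all 4 arrays as independent. The sample labels call the second fraction unbound (total), while the methods describe a parallel input, and a fraction depleted of TRAP RNA cannot be told apart from whole tissue here. The question was which receptor subunit mRNAs were on ribosomes of Slc6a3-expressing cells, at which level, and how this differed from the tissue around them. In bulk RNA, more cells of a type and more RNA per cell cannot be told apart.

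The labelled cell type was checked with 6 dopamine neuron markers (Th, Slc6a3, Slc18a2, Ddc, Nr4a2 and Pitx3), and 6 of 6 rose in TRAP, Pitx3 by at least 4.24-fold against 50 units in input and the others by 7.42-fold (Slc6a3) or more. All 3 GABAergic markers had negative log2 fold changes with a median of -1.26, as did 5 of 5 astrocyte markers (median -2.24) and the 5 oligodendrocyte markers above background (median -1.30). Of these, 1 of 3 GABAergic, 1 of 5 astrocyte and 0 of 5 oligodendrocyte markers passed the threshold of adjusted p under 0.05 by limma. The GABAergic markers still summed to 5960 and 2839 arbitrary units on TRAP replicates 2 and 4, against 12865 and 5968 on input replicates 1 and 2. The oligodendrocyte markers summed to 47122 and 20832 units in TRAP and 51091 and 62998 in input, and without Mbp, which held most of each sum, to 6074 and 2167 in TRAP, against 13895 and 21340 in input. Both of these marker sums were thus well above background in TRAP RNA, and higher on replicate 2 than on replicate 4. Microglia (2 of 2 above background, 1 past the threshold), oligodendrocyte precursor (2 of 2, 1 past it) and endothelial (1 of 1, 0 past it) markers also had negative values. Slc17a6 of glutamatergic neurons was negative without passing (-1.49), while 4 of 5 pan-neuronal markers were positive with none past the threshold. The part of these other cells in the values below was not tested.

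Of the 21 member probe sets, 14 were above background, meaning at 50 arbitrary units or more on both arrays of TRAP or of input (8 AMPA and 6 NMDA probe sets, from 8 genes). Across these 14, 0 were higher and 0 lower in TRAP at an adjusted p under 0.05 by limma, and 0 had an unadjusted p under 0.05. Over all 17073 probe sets above background, 18.8% were higher and 9.13% lower by the same test, and 6993 had an unadjusted p under 0.05. The adjusted p of the 14 lay between 0.0852 and 0.804 (limma), and their standard errors (SE) between 0.12 and 1.17 on the log2 scale. The log2 fold change, TRAP minus input, was negative on 10 of the 14 and positive on 4. Its median was -0.36 over the members and 0.44 over all probe sets above background, and 11 of the 14 lay under that overall median. By family, 7 of 8 AMPA probe sets were negative with a median of -0.48, and the NMDA probe sets were 3 negative and 3 positive with a median of -0.09. Both TRAP arrays lay above both input arrays on 2 of the 14, where 51.5% of all probe sets did, and below them on 5 of the 14, where 24.9% did. Where 1 array is left out below, its fraction has a single array, which is assumed to vary like the other fraction, and the spread within fractions comes from that other fraction alone. A gene whose variable fraction loses an array can therefore pass with no more evidence than before.

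**Figure D1:**
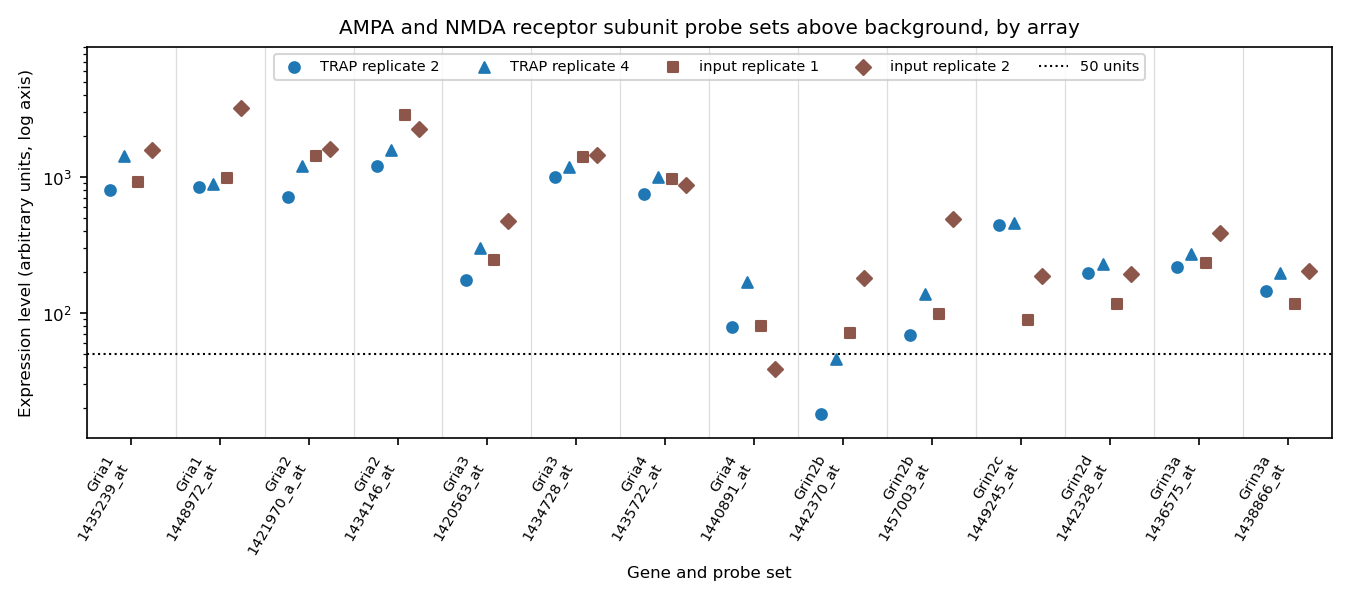
Expression level in arbitrary units (log axis) of the 14 member probe sets above background, with the 2 TRAP arrays in blue, the 2 input arrays in brown and 50 units as a dotted line. Both TRAP arrays of Grin2c, at 439.5 and 459 units, lie above both input arrays, at 88.6 and 187 units.

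The AMPA receptor subunit GluA2 decides whether the receptor passes calcium, and its gene Gria2 has 3 probe sets. On 1434146_at, its brightest, Gria2 was at 1199 and 1574 units on TRAP replicates 2 and 4, against 2829 and 2242 on input replicates 1 and 2. On 1421970_a_at the levels were 706 and 1207 units in TRAP and 1433 and 1607 in input. Both TRAP arrays lay below both input arrays on each of these probe sets. The log2 fold changes of Gria2 were -0.87 (SE 0.24, adjusted p = 0.0852 by limma) and -0.72 (SE 0.37, adjusted p = 0.22). Neither passed the threshold, and the 95% interval of the brightest ran from -1.78 to 0.03. The remaining Gria2 probe set, 1453098_at, was at 12.1 and 12.5 units in TRAP and 63.6 and 45.5 in input, also lower on both TRAP arrays. It did not reach 50 units on both arrays of either fraction and is counted as below background. Its measured log2 fold change was -2.13 (adjusted p = 0.019 by limma). Against 50 units its fold is only at least 1.08 lower in TRAP, and that p does not apply to this bound. With the arrays centred on bright probe sets, 1434146_at reached -1.28 (adjusted p = 0.0153) and 1421970_a_at -1.13 (adjusted p = 0.0375), and after quantile normalization 1434146_at reached -1.38 (adjusted p = 0.0317 by limma). Gria2 passed under 3 of 12 alternatives, which were centring, quantile normalization and the mean of all 3 probe sets. That mean (-1.24, adjusted p = 0.0498 by limma) takes in 1453098_at, which is below background, and is not a value of the brightest alone. The adjusted p ranged from 0.0153 to 0.288 over the 12. Without single arrays 1421970_a_at ranged from -1.10 to -0.33.

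Gria3, which encodes the GluA3 subunit, followed the same order on its brighter probe set. On 1434728_at it was at 997 and 1183 units in TRAP and 1410 and 1437 in input, so the TRAP arrays were below both input arrays. The input pools differed by 1.02-fold on this probe set, the narrowest spread among the 14. Its log2 fold change was -0.39 (SE 0.12, 95% interval -0.83 to 0.05, adjusted p = 0.0956 by limma). The dimmer probe set 1420563_at was at 174 and 302 units in TRAP and 244 and 474 in input, where the fractions overlapped (log2 fold change -0.57, SE 0.58, adjusted p = 0.465). Without single arrays the dimmer one ranged from -1.05 to -0.0908 and never passed. Gria3 on 1434728_at passed under 3 of 12 alternatives, which were centring (log2 fold change -0.80, adjusted p = 0.0154), quantile normalization (-0.88, 0.0209) and leaving out TRAP replicate 4 (-0.51, 0.0366), where the spread came only from the 2 close input arrays. Its adjusted p was 0.30 without input replicate 1, 0.322 without input replicate 2, 0.214 with only probe sets above background in the fit and at most 0.354 over the 12 (limma).

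Gria1, which encodes GluA1, the subunit delivered to synapses in many forms of plasticity, gave unequal values between the input pools. On 1448972_at it was at 844 and 891 units in TRAP, against 980 on input replicate 1 and 3205 on input replicate 2. The TRAP arrays lay close together and below both input arrays, while the input arrays differed by 3.27-fold. The log2 fold change was -1.03 (SE 0.79, adjusted p = 0.36 by limma), and its value rested on the input arrays. Without input replicate 1 it was -1.89 (adjusted p = 0.0196, the 1 of 12 alternatives that passed, with the spread from the 2 TRAP arrays alone), and without input replicate 2 it was -0.18 (adjusted p = 0.226 by limma). On 1435239_at Gria1 was at 804 and 1415 units in TRAP and 911 and 1576 in input. The fractions overlapped there, with a log2 fold change of -0.17 (SE 0.53, adjusted p = 0.804), which became 0.24 without TRAP replicate 2 and 0.23 without input replicate 2. The 2 probe sets of Gria1 therefore gave differences of unlike size, and neither passed.

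Gria4, which encodes GluA4, an AMPA subunit with fast gating, differed least between the fractions on its brightest probe set. On 1435722_at it was at 746 and 1004 units in TRAP and 964 and 873 in input, so that the input values fell inside the TRAP range. The log2 fold change was -0.08 (SE 0.21, adjusted p = 0.756 by limma), and its 95% interval of -0.88 to 0.71 holds changes of both signs. Without TRAP replicate 2 it was 0.13. On 1440891_at Gria4 was at 78.1 and 169 units in TRAP and 80.6 and 38.4 in input, the only AMPA probe set above background with a positive log2 fold change (1.05, SE 0.72, adjusted p = 0.317), which ranged from 0.49 to 1.60 without single arrays. One input array lay under 50 units there, the fractions overlapped, and the 2 TRAP pools differed by 2.16-fold. A further Gria4 probe set, 1421351_at, gave 4.58 units in TRAP, against 4.6 in input, which is the floor of the deposited values.

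Grin2c, which encodes GluN2C, had the largest positive log2 fold change of the members. GluN2C gives NMDA receptors a weak magnesium block and is best known from cerebellar granule cells and astrocytes. Its only probe set, 1449245_at, was at 439.5 and 459 units on TRAP replicates 2 and 4, against 88.6 and 187 on input replicates 1 and 2. The TRAP arrays differed by 1.04-fold and both lay above both input arrays, which differed by 2.11-fold from each other. The log2 fold change was 1.80 (SE 0.50, 95% interval -0.10 to 3.70), or 3.49-fold, with an adjusted p of 0.0867 by limma, so it missed the threshold. Of all probe sets above background, 89.1% had a lower log2 fold change than Grin2c. Grin2c passed under 3 of 12 alternatives, and its adjusted p ranged from 0.0121 to 0.313. With only probe sets above background in the fit it was 0.0425 (limma). The other passes, without input replicate 1 (log2 fold change 1.26, adjusted p = 0.024) and without input replicate 2 (2.34, 0.0121), leave 1 input array and take the spread from the 2 TRAP arrays, which lay 1.04-fold apart. The adjusted p was 0.297 without TRAP replicate 2, 0.313 without TRAP replicate 4, 0.166 after quantile normalization and 0.0602 after centring (limma). Astrocyte markers, from a cell type that also expresses Grin2c, had negative log2 fold changes in 5 of 5, with 1 past the threshold. They summed to 3376 and 2889 units in TRAP and 10569 and 15263 in input. The part of astrocyte RNA in the Grin2c values was not tested.

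Grin2d encodes GluN2D, a slowly deactivating subunit found in brainstem and midbrain neurons. On 1442328_at it was at 198 and 228 units in TRAP and 116 and 193 in input. Both TRAP arrays were above both input arrays, but TRAP replicate 2 exceeded input replicate 2 by little. The log2 fold change of 0.50 (SE 0.35, 95% interval -0.84 to 1.84, adjusted p = 0.327 by limma) was near the median of 0.44 over all probe sets above background, and it ranged from 0.13 to 0.87 without single arrays. The other Grin2d probe set, 1421393_at, gave 4.58 units in TRAP, against 4.59 in input, at the floor.

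Grin2b, which encodes GluN2B, a subunit with slow kinetics that binds the kinase CaMKII, lay on the other side. On 1457003_at it was at 69.1 and 138 units in TRAP and 98.3 and 493 in input. The input pools differed by 5.01-fold, the widest spread among the 14 probe sets, and the fractions overlapped. The log2 fold change was -1.17 (SE 1.17, 95% interval -5.62 to 3.27, adjusted p = 0.459 by limma), and it was -2.34 without input replicate 1 and -0.01 without input replicate 2. On 1442370_at Grin2b was at 18.1 and 45.5 units in TRAP and 71.7 and 182 in input, with the TRAP arrays below both input arrays and below 50 units. The measured log2 fold change was -1.99, without passing the test (adjusted p = 0.178 by limma), and with values under 50 units raised to 50 it was -1.19. Against 50 units that is at least 2.28-fold lower in TRAP. The other probe sets of Grin2b, 1422223_at and 1431700_at, lay between 4.58 and 5.05 units on all 4 arrays and give no level.

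Grin2a, which encodes GluN2A, the subunit of fast NMDA currents in mature forebrain, was not above background. Its single probe set, 1421616_at, was at 4.58 units on both TRAP arrays and 4.6 on both input arrays. Gria4, Grin2b and Grin2d also had probe sets near this floor, while other probe sets of the same genes were above background. The Grin2a probe set therefore gives no level, and absence of the mRNA cannot be read from it. The values within a fraction were identical, so limma's adjusted p of 0.0164 for the log2 difference of -0.01 has no spread between pools behind it. It is the 1 gene of 9 that passed on its brightest probe set, and it is not read as a change. Of the 7 member probe sets below background, 4 had identical values within each fraction, and 5 passed the threshold, among them the dim Gria2 probe set 1453098_at. The matching shares over all probe sets below background were not computed, so these counts are not read as a trait of the members.

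Grin3a encodes GluN3A, which lowers the calcium permeability of the NMDA receptors it joins. On 1436575_at it was at 216 and 271 units in TRAP and 234 and 389 in input, and on 1438866_at at 146 and 197 units in TRAP and 116 and 204 in input. The fractions overlapped on each probe set. The log2 fold changes of Grin3a were -0.32 (SE 0.37, adjusted p = 0.52) and 0.14 (SE 0.43, adjusted p = 0.80 by limma), so the probe sets differed in sign. The sign of 1438866_at was negative after quantile normalization (-0.12), after centring (-0.27), without TRAP replicate 4 (-0.08) and without input replicate 1 (-0.27), and that of 1436575_at was positive without input replicate 2 (0.05). Its remaining probe set, 1458378_at, lay between 4.97 and 5.28 units and was below background.

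**Figure D2:**
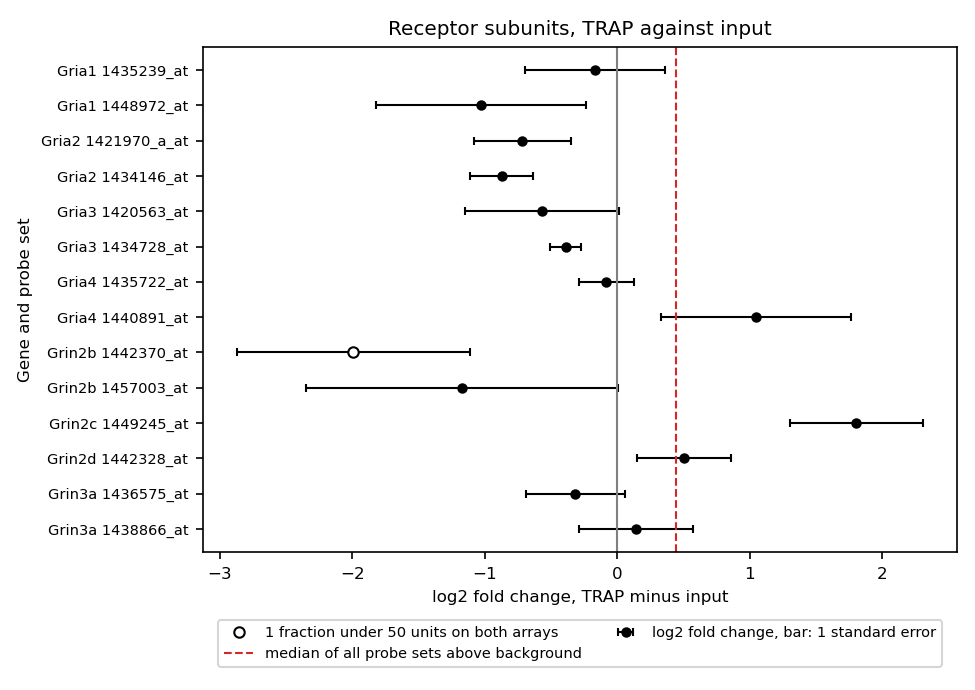
Log2 fold change, TRAP minus input, of the 14 member probe sets above background (points) with 1 standard error (SE, bars), and the median of all probe sets above background (dashed line at 0.44). Grin2c lies at 1.80, and the open point is Grin2b on 1442370_at, drawn at its measured -1.99 although both TRAP arrays were under 50 units (-1.19 with those raised to 50).

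The balance between subunits was examined within each array, as the difference of the log2 values of a pair of subunits, which does not move with the scaling of an array. Levels of different probe sets are not comparable, so only the change of such a difference between TRAP and input is of use. Of 9 pairs (6 of AMPA subunits and 3 of GluN2 subunits) 6 did not overlap between the fractions. Among single probe sets above background, 51.5% lay above and 24.9% below without overlap, so separation of the fractions was common on these arrays. Single probe sets do move with the scaling of an array, and no such share was computed over pairs. The 9 pairs share subunits and are not independent of each other. With 2 arrays against 2 an exact permutation test cannot give a 2-sided p under 0.33, so no pair could pass, and each of these 6 had that p.

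Among the GluN2 subunits, Grin2b minus Grin2c was -2.67 and -1.74 in TRAP, against 0.15 and 1.40 in input, a change of -2.98. Grin2b minus Grin2d was -1.52 and -0.72 in TRAP and -0.24 and 1.35 in input, a change of -1.68. Grin2c minus Grin2d was 1.15 and 1.01 in TRAP and -0.39 and -0.05 in input, a change of 1.30. On both TRAP arrays Grin2b was thus lower relative to Grin2c and Grin2d than on either input array, without a test that could pass. The size rested on single arrays, because without input replicate 1 or 2 Grin2b minus Grin2d changed by -2.47 or -0.88, and Grin2b minus Grin2c by -3.60 or -2.35.

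Among the AMPA subunits, Gria2 minus Gria4 was 0.69 and 0.65 in TRAP, against 1.55 and 1.36 in input, a change of -0.79. Gria2 minus Gria3 was 0.27 and 0.41 in TRAP and 1.0 and 0.64 in input (change -0.48), and Gria3 minus Gria4 was 0.42 and 0.24 in TRAP and 0.55 and 0.72 in input (change -0.31). Gria2 was lower relative to Gria4 on both TRAP arrays than on either input array. Without single arrays, Gria2 minus Gria4 changed by -0.89 to -0.69, Gria2 minus Gria3 by -0.66 to -0.30 and Gria3 minus Gria4 by -0.40 to -0.22. With the mean of the probe sets above background in place of the brightest, Gria2 minus Gria4 changed by -1.28 and Gria3 minus Gria4 by -0.96, and Gria2 minus Gria3 overlapped between the fractions. The 3 pairs that hold Gria1 overlapped.

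**Figure D3:**
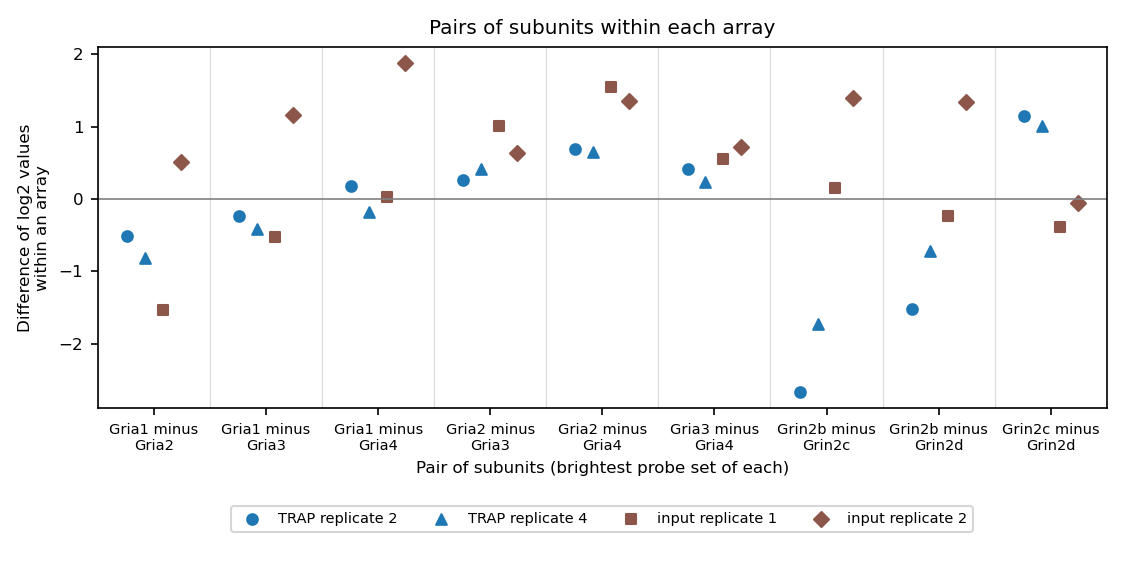
Difference of the log2 values of 2 subunits within each array, for the 9 pairs, with TRAP arrays in blue and input arrays in brown. For Grin2b minus Grin2c the TRAP arrays lie at -2.67 and -1.74 and the input arrays at 0.15 and 1.40.

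The replicates of a fraction also differed from each other in a shared direction. All 14 member probe sets were higher on TRAP replicate 4 than on TRAP replicate 2, by 1.04-fold to 2.51-fold, against 50.8% of all probe sets above background. The median difference, replicate 2 minus replicate 4, was -0.43 log2 units for the members and -0.01 for all. The 6 dopamine neuron markers were also all higher on replicate 4 (median difference -0.33), whereas the 3 GABAergic and the 5 oligodendrocyte markers above background were all higher on replicate 2 (median differences 1.07 and 1.46). Astrocyte markers (4 of 5) and the microglia markers above background (2 of 2) were also higher on replicate 2. Of the 5 pan-neuronal markers, 4 were higher on replicate 4 (median difference -0.20). The 3′ minus 5′ difference of the control probe sets, a measure of 3′ bias, was larger on TRAP replicate 2 than on replicate 4 (4.96 and 3.52 log2 units for Gapdh, 6.45 and 4.82 for actin). In input, 11 of the 14 were higher on replicate 2 than on replicate 1, with a median difference of 0.76, against 47.8% and a median of 0.00 over all probe sets. There 2 of 6 dopamine neuron markers (median difference -0.18), 0 of 3 GABAergic and 4 of 5 pan-neuronal markers were higher on replicate 2. Pitx3, counted among the 6, was equal on both input arrays at the floor. Astrocyte (4 of 5), oligodendrocyte (3 of 5) and microglia (2 of 2) markers above background were higher on replicate 2 as well. The 3′ minus 5′ difference was smaller on replicate 2 (6.39, against 6.81 on replicate 1, for Gapdh, and 7.08, against 7.30, for actin). More than 2-fold separated the input arrays on 5 of the 14 member probe sets and on 13.7% of all, and the TRAP arrays on 2 of the 14 and on 6.75% of all. These are differences between single pools, and the part of cell makeup or RNA quality in them was not tested.

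Genes for proteins that assemble, traffic and anchor the receptors were examined in 3 lists, to be read against the 18.8% of all probe sets above background that were higher and the 9.13% that were lower. In each list the share called higher was below the first of these. Of 18 auxiliary and assembly proteins of AMPA receptors 15 were above background, 2 rose and 1 fell, with a median log2 fold change of 0.39. Gsg1l, an auxiliary subunit that slows recovery of AMPA receptors from desensitization, was at 3371 and 4670 units in TRAP and 374 and 516 in input. Its log2 fold change was 3.17 (SE 0.31, adjusted p = 0.0162 by limma), or 9.03-fold, the largest rise among the partners. Cpt1c, a protein of the endoplasmic reticulum that interacts with AMPA receptors, was at 1278 and 1593 units in TRAP and 673 and 775 in input (log2 fold change 0.98, SE 0.18, adjusted p = 0.0484). Frrs1l, which takes part in AMPA receptor assembly, fell to 3770 and 4183 units in TRAP, against 7937 and 8397 in input (log2 fold change -1.04, SE 0.08, adjusted p = 0.0104). Shisa9, an auxiliary subunit also called CKAMP44, was at 2019 and 2866 units in TRAP and 1530 and 1953 in input, and did not pass (log2 fold change 0.48, SE 0.29, adjusted p = 0.271). The transmembrane regulator Cacng2, stargazin, was at 1051 and 1148 units in TRAP and 761 and 923 in input without passing (adjusted p = 0.134).

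Of 20 measured scaffold and kinase genes of the postsynaptic side 17 were above background, 2 rose and 0 fell, and their median log2 fold change was 0.02. Grip2, a PDZ protein that binds the tails of GluA2 and GluA3, was at 2499 and 3116 units in TRAP and 795 and 891 in input. Grip2 rose by 1.73 on the log2 scale (SE 0.17, adjusted p = 0.0162 by limma), while the subunits it binds had negative values. Dlgap3, a scaffold protein that links PSD-95 to Shank proteins, was at 308 and 310 units in TRAP and 81.4 and 125 in input (log2 fold change 1.61, SE 0.29, adjusted p = 0.0487). Dlg1, a scaffold that binds GluA1, was at 1903 and 1896 units in TRAP and 3514 and 2614 in input, with a log2 fold change of -0.67 that did not pass (adjusted p = 0.0949). Dlg1 passed under 4 of 12 alternatives, after centring (-1.08, adjusted p = 0.0165), after quantile normalization (-1.18, 0.0319) and without input replicate 1 (-0.46, 0.00481) or 2 (-0.89, 0.0026). In the leave-outs the spread came only from the TRAP arrays, which were nearly equal, and over the 12 the adjusted p reached 0.325 (limma). Nsf, an ATPase that binds GluA2, was at 9583 and 11567 units in TRAP and 9579 and 9374 in input (log2 fold change 0.15, adjusted p = 0.391), a value that was negative after centring (-0.26) and after quantile normalization (-0.36).

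The remaining list joined RNA editing enzymes, co-agonist genes, pentraxins, LRRTM adhesion proteins and Grin3b, and 8 of its 10 measured genes were above background, with 1 that rose, 0 that fell and a median of -0.16. Srr, serine racemase, which makes the NMDA co-agonist D-serine, was at 388 and 374 units in TRAP and 269 and 267 in input (log2 fold change 0.51, SE 0.03, adjusted p = 0.00485 by limma). That change was near the overall median of 0.44, and after centring it was 0.10 and no longer passed (adjusted p = 0.384). Averaged over its probe sets, Srr had a log2 fold change of -0.28. Adarb1, the enzyme that edits the GluA2 codon, was at 344 and 539 units in TRAP and 649 and 2105 in input, with a log2 fold change of -1.44 (SE 0.84, adjusted p = 0.263), and Adar, a related deaminase, at 1185 and 1181 units in TRAP and 904 and 1204 in input (0.18, adjusted p = 0.48). Nptx1, a secreted pentraxin that clusters AMPA receptors, was at 1212 and 1785 units in TRAP and 866 and 909 in input (0.73, adjusted p = 0.131), and Lrrtm1, a synaptic adhesion protein, at 1119 and 351 units in TRAP and 1520 and 2171 in input (-1.53, adjusted p = 0.231). Grin3b, which encodes the GluN3B subunit, was below background, between 11.4 and 23.6 units on the 4 arrays.

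With 2 arrays a fraction, the calls of the partner genes rested on every array or nearly so. Without TRAP replicate 2, TRAP replicate 4, input replicate 1 or input replicate 2, Gsg1l (adjusted p from 0.0734 to 0.107), Frrs1l (0.05 to 0.0799), Cpt1c (0.118 to 0.186) and Grip2 (0.0596 to 0.101) each missed the threshold with their signs unchanged. Dlgap3 missed it without TRAP replicate 2 (0.203) or TRAP replicate 4 (0.209), and Srr without input replicate 1 (0.0546) or input replicate 2 (0.0569, limma). With values under 50 units raised to 50, Gsg1l (adjusted p = 0.0806 by limma), Frrs1l (0.0607), Cpt1c (0.168), Dlgap3 (0.169) and Grip2 (0.0806) missed it as well, although their own values did not change. After quantile normalization Cpt1c (0.137), Dlgap3 (0.0845) and Srr (0.159) missed it, and with the probe sets of a gene averaged Frrs1l (0.238), Cpt1c (0.0527) and Dlgap3 (0.0529) did. The log2 fold changes of Cpt1c and Dlgap3 were unchanged by that averaging, and only their adjusted p moved.

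**Figure D4:**
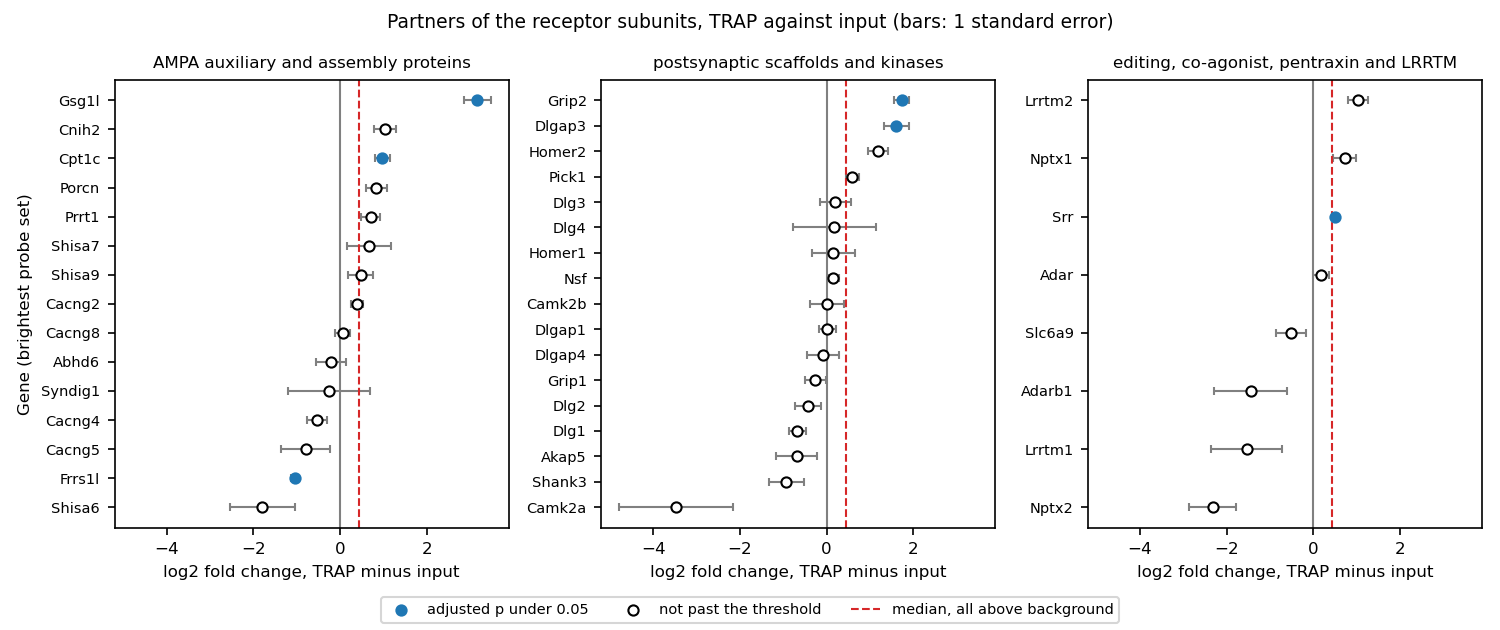
Log2 fold change, TRAP minus input, of the partner genes above background in 3 lists, with 1 SE as bars, filled points for an adjusted p under 0.05 and a dashed line at the median of all probe sets above background (0.44). Gsg1l at 3.17 is the rightmost of the first list and Grip2 at 1.73 of the second.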

How the data were processed

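RNA of TRAP and input fractions was measured on Affymetrix whole-genome mouse arrays after two-cycle amplification. The authors processed the arrays in R with GCRMA and deposited log2 values, 1 per probe set and array. The GCRMA version is not given in the sources used here. Levels in arbitrary units are 2 raised to these values. The number of arrays limits the precision, and p-values measure only the spread between 2 pools of a fraction. Distributions differed between the fractions (median level 7.28 and 7.13 units in TRAP, 10.2 and 10.1 in input), so values were also centred or quantile normalized. For Gapdh, the control probe set at the 3′ end exceeded that at the 5′ end by 4.96 and 3.52 log2 units in TRAP and 6.81 and 6.39 in input. The fractions did not overlap in this measure, nor for actin (6.45 and 4.82 in TRAP, 7.30 and 7.08 in input). A difference in 3′ bias therefore cannot be told apart from one between TRAP and input, and its part in the fold changes was not tested.

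After 64 control probe sets were left out, 45037 were fitted with limma 3.58.1 in R 4.3.3 (1 coefficient for the fraction, empirical Bayes, 2-sided), with Benjamini-Hochberg adjustment over all of them and a threshold of 0.05. Background was set at 50 units. Log2 fold changes, SE and p-values of the main fit used the deposited values without a floor. Only in folds given as "at least" did a fraction with both arrays under 50 units enter at 50 units. A gene in a list is represented by its brightest probe set (highest mean over the 4 arrays) with 1 gene symbol. All member probe sets are named, with up to 4 genes of each partner list (those past the threshold in order of change, then those of highest mean). Cacng2, Adarb1, Grin3b and the genes in the closing section were added after their values were seen. The members and lists were chosen with earlier results of these data known. Alternatives were quantile normalization, centring on bright probe sets (none of the arrays under 50 units), fitting only probe sets above background, raising low values to 50, a background of 100 units, an intensity trend, leaving out single arrays, keeping the control probe sets, and the mean of the probe sets of a gene. The fit was tested on simulated data.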

Additional observations from a re-analysis of the deposited data

How the results depend on the processing

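No paired analysis was possible because TRAP and input share only the replicate number 2. The main settings called 0 member genes higher and 1 lower, Grin2a at the floor, and 0 lower when genes below background were left out of the count, a setting added after seeing the data. Quantile normalization called 2 member genes and 2 member probe sets lower (Gria2 and Gria3). Centring on bright probe sets called 3 genes lower, which were Gria2, Gria3 and Grin2a at the floor. It called 3 member probe sets above background lower, 1434146_at and 1421970_a_at of Gria2 and 1434728_at of Gria3. Over all probe sets it called 3745 higher and 3867 lower, against 3213 and 1559. These settings brought the median log2 fold change above background to 0.07 and 0.03. Fitting only probe sets above background called 1 gene and 1 probe set higher (Grin2c) and 0 genes lower. Raising low values to 50 called 0 genes lower and, over all, 824 probe sets higher and 467 lower, and most probe sets then had no residual variance. A background of 100 units gave 1006 lower. Leaving out each array gave 0 to 1 member genes higher, 0 to 2 lower, 0 to 1 member probe sets higher and 0 to 1 lower, and over all 1340 to 2652 higher and 842 to 1313 lower. With the mean of the probe sets of a gene, Gria2 passed (-1.24, adjusted p = 0.0498 from limma), Gria4 turned to 0.32, and Adar turned to -0.54 and passed (0.0432) while Srr turned to -0.28. Gria2 minus Gria4 changed by -1.28 and Gria3 minus Gria4 by -0.96 with the mean of the probe sets above background. Leaving out each array also turned signs, with ranges of -0.298 to 0.13 for Gria4, -0.687 to 0.049 for Grin3a, -0.575 to 0.24 for Gria1 on 1435239_at, -0.27 to 0.548 for Grin3a on 1438866_at, -0.0254 to 0.388 for Adar and -1.08 to 0.0604 for Mbp. Grin3a on 1438866_at (-0.12), Shisa9 (-0.0458), Nsf (-0.36) and Adar (-0.28) turned after quantile normalization, and Grin3a on 1438866_at (-0.27), Nsf (-0.26) and Adar (-0.23) after centring. The causes were not tested.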

Other observations

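Among partner genes that did not pass, some were separated between the fractions by large but uneven values. Camk2a, the kinase subunit most abundant in forebrain excitatory neurons, was at 93.2 and 29.4 units in TRAP, against 264 and 1278 on input replicates 1 and 2 (log2 fold change -3.47, SE 1.31, adjusted p = 0.141 by limma). Nptx2, a pentraxin induced by activity, was below 50 units on both TRAP arrays (31.2 and 16.4) and at 87.9 and 145 units in input. Its measured log2 fold change was -2.32 (adjusted p = 0.077 by limma), and against 50 units Nptx2 was at least 2.26-fold lower in TRAP. Shisa6, an auxiliary AMPA receptor protein, was at 84.2 and 173 units in TRAP and 271 and 643 in input (log2 fold change -1.79, SE 0.75, adjusted p = 0.167). On the positive side, Homer2, a scaffold of the postsynaptic density, was at 1645 and 2107 units in TRAP and 719 and 927 in input (log2 fold change 1.19, SE 0.24, adjusted p = 0.0586), and Lrrtm2 at 667 and 718 units in TRAP and 403 and 287 in input (log2 fold change 1.03, SE 0.23, adjusted p = 0.0721). On input replicate 2 Camk2a, Adarb1 and Shisa6, like Gria1 on 1448972_at and Grin2b, were more than 2-fold above their level on input replicate 1. These genes were picked after their values were seen.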
